A study of Mus musculus with 19 samples.

Results

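The unfolded protein response genes described here are the 10 rows of the deposited table with the symbols Hspa5, Calr, Hsp90b1, Herpud1, Ern1, Eif2ak3, Atf6, Xbp1, Atf4 and Ddit3, out of 50559 genes in all. They were chosen by symbol, with no threshold on values but with earlier results of these data known. All 10 were among the 15572 genes that passed the filter on low counts. Their ribosome-bound mRNA was followed over the day in cholinergic neurons of the spinal cord, in wild-type male ChAT-Cre;RiboTag fx/+ mice aged 10 weeks. In these animals Cre recombinase, expressed from the choline acetyltransferase locus, switches on a hemagglutinin-tagged ribosomal protein, so that an immunoprecipitation (IP) against the tag recovers mRNA bound to the ribosomes of every cell with a history of ChAT-Cre, motor neurons and other cholinergic neurons alike. Mice were kept under 12 h of light and 12 h of darkness, and spinal cords were taken at Zeitgeber time (ZT) 0, which is lights on, and at ZT4, ZT8, ZT12, ZT16 and ZT20, with 3 biological replicates per time point. All 18 IP libraries and the 1 pooled input library, which holds RNA of homogenate before precipitation, came from animals of this same genotype, and no treatment is named.

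The unfolded protein response is the set of pathways by which a cell adjusts the folding capacity of its endoplasmic reticulum (ER) to the load of new protein. Its sensors sit in the ER membrane: the kinase and endoribonuclease IRE1 (encoded by Ern1), the kinase PERK (Eif2ak3) and the transcription factor precursor ATF6 (Atf6). The chaperone BiP (Hspa5) binds the sensors when few proteins are misfolded. IRE1 splices the mRNA of the transcription factor XBP1, PERK phosphorylates the translation factor eIF2 alpha, which slows translation in general but favours that of ATF4, and cleaved ATF6 enters the nucleus. Among the genes that these factors switch on are chaperones, components of ER-associated degradation such as Herpud1, and the transcription factor CHOP (Ddit3). Motor neurons are large cells with long axons, and this pathway has been studied widely in motor neuron disease.

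ATF6 and XBP1 act through the ER stress response element (ERSE), so promoters were searched for it. RefSeq promoter windows on GRCm38.p6 span 250 bases before to 50 bases after a gene's start, and 9 of the 10 members had one (all but Atf6). The ERSE was written as CCAAT, any 9 bases and CCACG, and its variant ERSE-II as ATTGG, any 1 base and CCACG, and both strands were searched. An ERSE stood in 39 of 32851 windows (0.119%) and an ERSE-II in 12 (0.0365%). Of the members, Hspa5, Calr and Hsp90b1 held an ERSE and Herpud1 an ERSE-II, and these stretches are shown because 4 members share this kind of element. They lie at chr2:34772020-34772048 (plus strand) for Hspa5, chr8:84847070-84847098 (minus strand) for Calr, chr10:86705633-86705661 and chr10:86705528-86705556 (minus strand) for Hsp90b1, and chr8:94386372-94386392 (plus strand) for Herpud1. Each is given with 5 bases on both sides in the direction of its gene, with the fixed letters of the element in capitals.
Hspa5: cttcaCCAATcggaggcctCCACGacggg
Calr: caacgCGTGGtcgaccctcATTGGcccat
Hsp90b1 (distal): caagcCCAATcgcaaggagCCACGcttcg
Hsp90b1 (proximal): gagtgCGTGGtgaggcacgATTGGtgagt
Herpud1: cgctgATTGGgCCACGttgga

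The element of Hspa5 spans bases 65 to 47 before the RefSeq start, that of Calr 162 to 144, the pair of Hsp90b1 212 to 194 and 107 to 89, and that of Herpud1 52 to 42. In Calr and in the proximal element of Hsp90b1 it runs on the other strand, so that the letters read CGTGG and then ATTGG. The other motifs were likewise searched on both strands. The XBP1 site TGACGTGG (in 0.676% of windows) was in no member window, the ATF4 site TGATGNAA (3.97%) was in that of Herpud1, and the E-box CACGTG bound by clock factors (7.15%) was in that of Calr. The windows of Ern1, Eif2ak3, Xbp1, Atf4 and Ddit3 held none of the 5 motifs. A match to these letters is a description of the window and not evidence of binding.

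Sequencing depth differed between libraries, with total counts from 6302150 to 22406844 in the IPs and 15239792 in the input. The lowest member count in any IP was 31 (Ern1), and edgeR put the variation among replicates at 19.2% (common coefficient of variation). The 7 cholinergic markers summed to between 4210 and 5030 CPM (counts scaled to library size) in the 18 IPs, with a median log2 ratio of 2.41 to the input. Other cell types were still present at lower levels. The 7 oligodendrocyte markers summed to 1520 to 2890 CPM, the 6 astrocyte markers to 131 to 203 CPM and the 6 microglia markers to 9.04 to 14.6 CPM, with none of these lists at 0. Over the 18 IPs the oligodendrocyte score, which is the mean log2 CPM of its list, had r between -0.345 (Eif2ak3) and 0.199 (Ern1) with the members. Most of the spread between libraries lay along 1 axis, the first principal component with 52.8% of the variance, on which ZT8 replicate 2 stood at one end (42.6) and ZT16 replicate 2 at the other (-27.9).

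To compare members with each other, CPM were divided by the exonic length of the protein-coding transcripts in GENCODE M21. On this per-length scale the chaperones and Atf4 were the most abundant and the sensors the least. The level over the 18 IPs was 146 ± 19.1 CPM per kb (SD, n = 18 here and below in this paragraph) for Hsp90b1, 138 ± 32.04 for Atf4, 98.03 ± 27.1 for Calr and 97.7 ± 18.8 for Hspa5. Herpud1 followed with 46.1 ± 4.28 CPM per kb, and its highest library (54.5) lay under the lowest of Hspa5 (70.8). Ddit3 at 15.7 ± 2.52 and Xbp1 at 15.0 ± 3.15 CPM per kb overlapped. The sensors closed the order, with 4.88 ± 0.463 CPM per kb for Atf6, 4.40 ± 0.886 for Eif2ak3 and 0.750 ± 0.194 for Ern1. The ranges of neighbours did not overlap at 4 steps of this order, between Hspa5 and Herpud1, Herpud1 and Ddit3, Xbp1 and Atf6, and Eif2ak3 and Ern1. They overlapped at the other 5. Ddit3 has 2 overlapping entries in GENCODE M21, and their joint exons set its length.

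Time of day was then examined, with the chaperones first. Hspa5 and Calr, which fold and retain proteins in the ER, were highest at ZT0 and lowest at ZT8, whereas Hsp90b1, the ER form of HSP90, was highest at ZT8. Between ZT0 and ZT8, Hspa5 fell from 463.5 ± 13.9 to 291 ± 41.2 CPM and Calr from 283 ± 14.8 to 141 ± 40.8 CPM (SD, n = 3 here and below). Atf4 moved the other way, from 196.5 ± 37.7 to 318 ± 36.4 CPM. These 3 members passed the test in this pair and the other 7 did not, beside 18.0% of all genes tested (edgeR quasi-likelihood test, false discovery rate under 0.05). Fewer cells of a type in the tagged fraction and less mRNA per cell cannot be told apart in such bulk samples. Of the 7 cholinergic markers 4 were lower and 0 higher at ZT8 than at ZT0, and 5 were higher and 0 lower at ZT16 than at ZT8. Their summed level in CPM ranged over 4300 to 4770 in the ZT0 animals, 4230 to 4690 in those of ZT8 and 4620 to 5030 in those of ZT16, and their part in the members' changes was not tested. Of the 7 oligodendrocyte markers 1 was lower at ZT8 than at ZT0 and 1 higher at ZT16 than at ZT8. Of the 4 inhibitory neuron markers 2 were lower at ZT8 than at ZT0, and their sums did not overlap (321 to 338 against 246 to 299 CPM). Of 3 excitatory neuron markers 1 was higher at ZT8 than at ZT0, as was 1 of the 5 microglia markers tested, and the latter list also had 1 marker lower at ZT16 than at ZT8. The part of these markers was not tested either. The counts of all these marker lists stand beside 9.02% of all genes lower and 8.95% higher at ZT8 than at ZT0. Between ZT8 and ZT16, 9.11% of all genes rose and 7.80% fell.

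**Figure D1:**
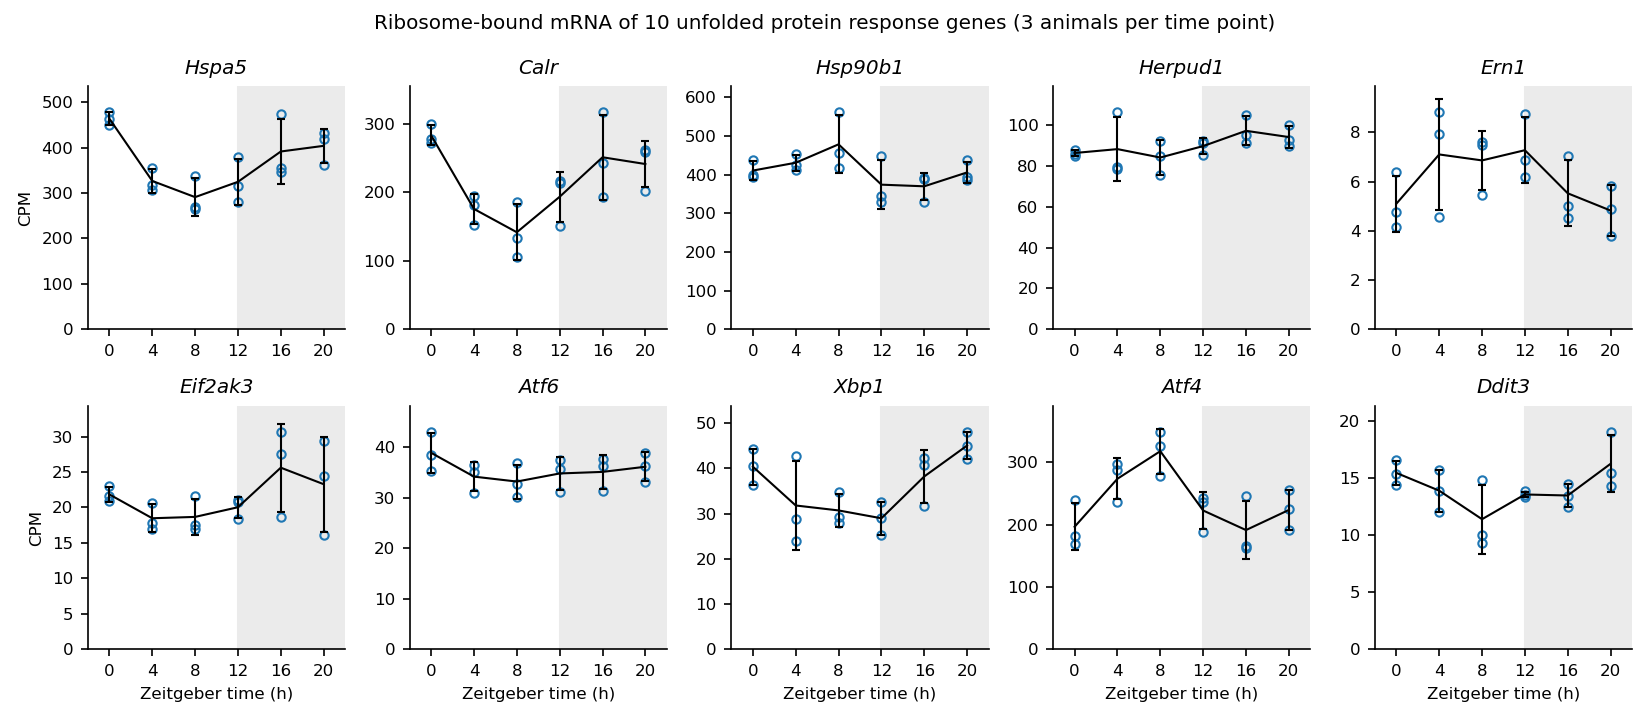
CPM (y axis) of each member in every IP library against Zeitgeber time in hours (x axis); circles are the 3 animals of a time point, the black line joins the means and bars show the SD. The dark phase is shaded from ZT12 to the end of the axis. Hspa5 and Calr dip at ZT8, where Atf4 reaches its highest mean (318 CPM).

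Hspa5 (chromosome 2, 34772090 to 34776529, plus strand, RefSeq GRCm38.p6 as for all members) encodes BiP, the main HSP70 of the ER. Replicates 1, 2 and 3 held 478, 450.5 and 462 CPM at ZT0, 356, 317 and 307 CPM at ZT4, and 338, 269 and 266 CPM at ZT8. They held 279, 378 and 316 CPM at ZT12, 356, 473 and 345 CPM at ZT16, and 432.5, 418 and 361 CPM at ZT20. The 3 animals at ZT0 lay close together and above every animal of ZT4, ZT8 and ZT12. From ZT0 to ZT8 the log2 fold change was -0.67 (SE 0.13, false discovery rate 0.00585, edgeR), and from ZT8 to ZT16 it was 0.43 (SE 0.13, 0.0308). The groups did not overlap in either pair. The fall at ZT8 remained called whichever of the 18 libraries was omitted (false discovery rate up to 0.0459), but not when a whole replicate number was, 2 (0.0891) or 3 (0.0691). Without number 2, 0 of 15650 genes were called in this pair, and without number 3, 0 of 15567. The rise to ZT16 was lost when replicate 1 (0.0510) or 2 (0.231) of ZT16, or replicate 2 (0.141) or 3 (0.128) of ZT8, was omitted. Over all genes, 892, 72, 87 and 931 were called in these cases, beside 2633 with every library. Without ZT16 replicate 2 the log2 fold change was 0.27, and it was 0.22 (0.579) without the whole replicate number 2. Without number 3 the call was lost too (0.0887). Of all genes tested, 0 were called from ZT8 to ZT16 without number 2, and 2238 without number 3.

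Calr (chromosome 8, 84842088 to 84846931, minus strand) encodes calreticulin, a lectin chaperone that binds calcium and newly made glycoproteins. Its values in replicates 1, 2 and 3 were 299, 272 and 277 CPM at ZT0, 194, 152 and 181 CPM at ZT4, and 186, 106 and 133 CPM at ZT8. They were 151, 213 and 216 CPM at ZT12, 243, 317 and 193 CPM at ZT16, and 262, 259 and 202 CPM at ZT20. Every animal at ZT8 was below every animal at ZT0, ZT16 and ZT20, and the spread at ZT8 and ZT16 was wide. The log2 fold change was -1.0 (SE 0.19, false discovery rate 0.00542) from ZT0 to ZT8 and 0.83 (SE 0.19, 0.00919) from ZT8 to ZT16 (edgeR). As for Hspa5, the fall kept its call without any single library (false discovery rate up to 0.0435) and lost it without replicate number 2 (0.0891) or 3 (0.0680). Without either number 0 of all genes tested were called in that pair. The rise lost its call without ZT8 replicate 2 (0.0689) or ZT16 replicate 2 (0.0731), and without the whole number 2 the log2 fold change was 0.46 (0.415). Over all genes, 87, 72 and 0 were called in these cases.

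Hsp90b1 (chromosome 10, 86690841 to 86705444, minus strand) encodes GRP94, a chaperone of a smaller set of secreted and membrane proteins. It held 399, 437.5 and 394.5 CPM at ZT0, 412, 454 and 426 CPM at ZT4, and 418, 562 and 455 CPM at ZT8. At ZT12 it held 345, 447 and 330.0 CPM, at ZT16 330.0, 388 and 391 CPM, and at ZT20 386, 393.5 and 437 CPM. The ZT8 animals lay above those of ZT16 and overlapped those of ZT0. The log2 fold change was 0.22 (SE 0.12, false discovery rate 0.218) from ZT0 to ZT8 and -0.37 (SE 0.12, 0.0395) from ZT8 to ZT16 (edgeR). Omitting a single library ended the latter call in 8 of 18 cases, with a false discovery rate up to 0.271 without ZT8 replicate 2. The other such libraries were replicate 1 of ZT0, ZT16 and ZT20, replicate 2 of ZT4, ZT16 and ZT20, and replicate 3 of ZT8. Without ZT8 replicate 2 the log2 fold change was -0.23, and the call was lost without each of the replicate numbers. Over all genes, 2223, 0 and 2238 were called in this pair without numbers 1, 2 and 3. The 3 members with an ERSE did not share a direction, since Hspa5 and Calr were called higher and Hsp90b1 lower at ZT16 than at ZT8.

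Herpud1 (chromosome 8, 94386429 to 94395371, plus strand), a membrane component of ER-associated degradation, was the steadiest member. Its time point means lay between 84.1 ± 8.39 CPM at ZT8 and 97.2 ± 7.12 CPM at ZT16, a range of 0.21 on the log2 scale beside a median range of 0.54 over all genes tested. In no pair of time points did it pass the test. An antisense gene overlaps its start in GENCODE M21, and the strand setting of the counting is not given in the sources used here.

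The sensors were low, and without a covariate and with all libraries in the fit they were called in no comparison of time points. Ern1 (chromosome 11, 106397620 to 106487796, minus strand) lay between 4.83 ± 1.02 CPM at ZT20 and 7.28 ± 1.34 CPM at ZT12, with animals of one time point as far apart as 4.55 and 8.83 CPM (ZT4). Eif2ak3 (chromosome 6, 70844484 to 70905241, plus strand) lay between 18.5 ± 1.94 CPM at ZT4 and 25.6 ± 6.23 CPM at ZT16. Its 3 animals at ZT16 held 27.5, 30.7 and 18.6 CPM, so that the high mean rested on 2 of them. From ZT8 to ZT16 its log2 fold change was 0.46 (SE 0.19, false discovery rate 0.109, edgeR), and it passed without ZT16 replicate 3 (0.65, 0.0198) and with the oligodendrocyte score as a covariate (0.64, 0.0120). Atf6 (chromosome 1, 170704457 to 170868585, minus strand) had means from 33.2 ± 3.38 CPM at ZT8 to 38.9 ± 3.93 CPM at ZT0, a range of 0.23 on the log2 scale. Between ZT0 and ZT8 the log2 fold change was 0.42 (SE 0.27) for Ern1, -0.23 (SE 0.19) for Eif2ak3 and -0.23 (SE 0.12) for Atf6, with false discovery rates of 0.311, 0.457 and 0.217 (edgeR).

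Xbp1 (chromosome 11, 5520641 to 5525993, plus strand), the transcription factor downstream of IRE1, was counted per gene, so its spliced and unspliced forms were not separated. It held 36.3, 44.2 and 40.6 CPM at ZT0, 34.8, 27.99 and 29.3 CPM at ZT8, and 42.1, 48.1 and 45.0 CPM at ZT20. The ZT8 animals lay below those of both other times. The log2 fold change was -0.40 (SE 0.17, false discovery rate 0.113) from ZT0 to ZT8 and 0.56 (SE 0.17, 0.0815) from ZT8 to ZT20, so neither passed with edgeR. Without ZT8 replicate 1 both did (0.0494 and 0.0217), and with DESeq2 the second did (adjusted p = 0.0315). At ZT4 the 3 animals ranged from 24.0 to 42.7 CPM.

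Atf4 (chromosome 15, 80255184 to 80257545, plus strand) encodes the transcription factor of the PERK branch, whose protein level depends strongly on upstream reading frames in its mRNA, so counts of ribosome-bound mRNA do not give its protein output. Its values were 181, 239.5 and 169 CPM at ZT0, 236, 288 and 297 CPM at ZT4, and 278, 349 and 327 CPM at ZT8. They were 236, 243 and 189 CPM at ZT12, 166, 162 and 245 CPM at ZT16, and 191, 224.5 and 255 CPM at ZT20. All ZT8 animals exceeded all animals of ZT0, ZT12, ZT16 and ZT20. The log2 fold change was 0.70 (SE 0.17, false discovery rate 0.00961) from ZT0 to ZT8 and -0.73 (SE 0.17, 0.00894) from ZT8 to ZT16 (edgeR). The rise was lost without ZT0 replicate 1 (0.0562), ZT0 replicate 3 (0.0536) or ZT8 replicate 2 (0.0672). Over all genes, 639, 1128 and 274 were called in these cases. The fall was lost without ZT8 replicate 2 (0.0641) and when either replicate 1 (0.0513) or 2 (0.0662) of ZT16 was omitted. Here 87, 892 and 72 genes were called in all. Without whole replicate numbers, the rise was lost for 2 (0.0907) and 3 (0.0691), and the fall for 2 (-0.55, 0.393). In each of these cases without a number, 0 of all genes tested were called.

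Ddit3 (chromosome 10, 127290793 to 127296291, plus strand), which encodes CHOP and is a target of ATF4, did not pass in any pair. It held 16.6, 15.3 and 14.4 CPM at ZT0 and 14.8, 9.33 and 9.95 CPM at ZT8. Replicate 1 of ZT8 overlapped the ZT0 animals and the others did not. The log2 fold change from ZT0 to ZT8 was -0.44 (SE 0.17, false discovery rate 0.0836), and it passed without ZT8 replicate 1 (-0.70, 0.00622, edgeR). Its lowest time point mean, 11.4 ± 3.02 CPM, was at ZT8, the time point at which Atf4 was highest.

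**Figure D2:**
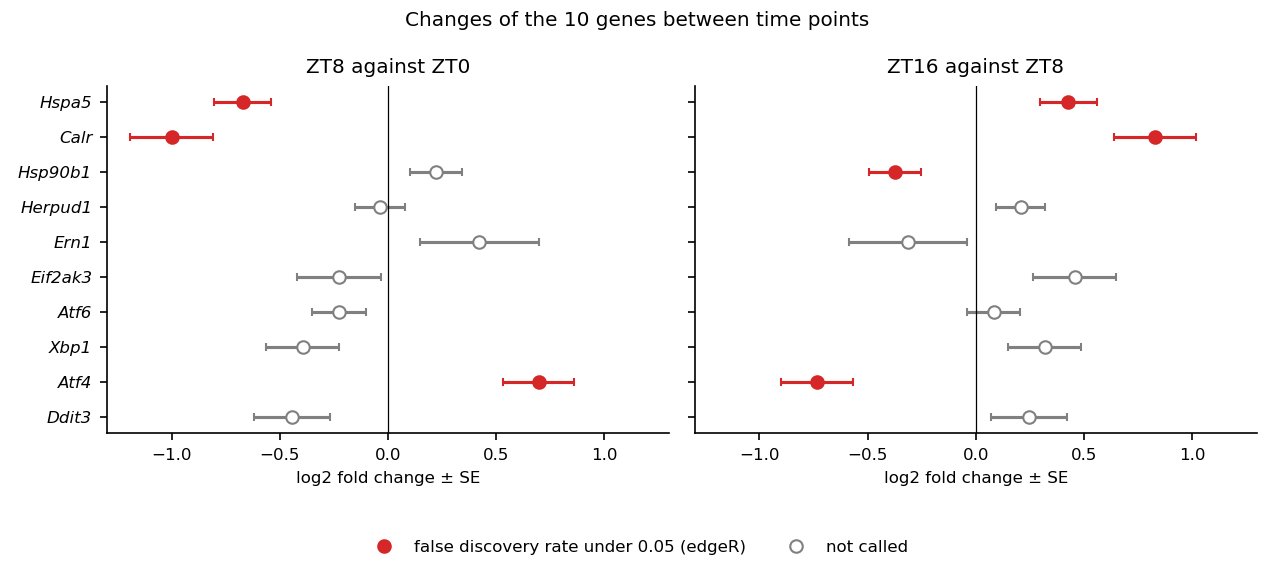
Log2 fold change (x axis) of each member (y axis) from ZT0 to ZT8 (left) and from ZT8 to ZT16 (right), with bars of 1 SE; filled red points passed a false discovery rate of 0.05 (edgeR). Hspa5 and Calr lie left of 0 and Atf4 right of it in the first pair, and all 3 lie on the other side in the second, where Hsp90b1 is also called.

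Across the pairs, ZT16 against ZT8 gave 4 members called (Hspa5, Calr, Atf4 and Hsp90b1) beside 16.9% of all genes. ZT20 against ZT8 gave 0 members and 0 genes with edgeR, although 5 members and 3474 genes (22.3%) were under an unadjusted p of 0.05, and DESeq2 called 4 members (Hspa5, Calr, Xbp1 and Atf4) beside 7.15% of all genes. Without ZT8 replicate 1 edgeR called 5 members, the same 4 and Ddit3, among 2320 of 16109 genes. In that pair the log2 fold change was 0.47 (SE 0.13, false discovery rate 0.0715) for Hspa5, 0.77 (SE 0.19, 0.0663) for Calr and -0.51 (SE 0.17, 0.0930) for Atf4 (edgeR). These 3 pairs share the ZT8 libraries and are not independent of each other. In the other 12 pairs of time points 0 members were called by edgeR, and between 0 and 3 members had an unadjusted p under 0.05. Over all 15572 genes, 0 to 10 were called in these pairs and 205 to 3275 had an unadjusted p under 0.05. Groups did not overlap for 4 members in ZT8 against ZT0 (Hspa5, Calr, Xbp1 and Atf4), beside 34.7% of all genes. They did not overlap for 4 in ZT16 against ZT8 (Hspa5, Calr, Hsp90b1 and Atf4), beside 27.2%, and for 4 in ZT20 against ZT8 (Hspa5, Calr, Xbp1 and Atf4), beside 20.9%.

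Rhythmicity was assessed with JTK_Cycle and with a 24-h cosinor. By JTK_Cycle adjusted across genes, 0 of 10 members were rhythmic, beside 6 of 15572 genes (0.0385%). With the p-value adjusted within each gene alone, 4 members passed (Hspa5 and Calr at p = 0.00319 each, Atf4 at 0.0264 and Xbp1 at 0.0390, exact null), beside 15.9% of all genes. The cosinor in edgeR called the same 4 members, beside 6.24% of all genes. The fitted 24-h curve of Hspa5, with an amplitude of 0.30 on the log2 scale from mean to peak, peaked at ZT21.0. Those of Calr (ZT20.1, 0.44) and Xbp1 (ZT20.8, 0.31) also peaked late in the dark phase. That of Atf4 peaked at ZT6.7 (0.30), in the light phase. The highest time point means were at ZT0 for Hspa5 and Calr, ZT20 for Xbp1 and ZT8 for Atf4. The best JTK_Cycle template had a period of 20 h for Hspa5, Calr and Atf4 and 24 h for Xbp1. The false discovery rates of the cosinor were 0.0373 for Hspa5 and Calr, 0.0390 for Xbp1 and 0.0473 for Atf4. These calls lie near the threshold, and in 9 of 18 cases omitting a single library left 0 members. These libraries were replicate 1 of ZT12, ZT16 and ZT20, replicate 2 of ZT0, ZT4, ZT8 and ZT16, and replicate 3 of ZT4 and ZT8. In these cases 2 to 13 genes were called in all, beside 972 with every library. Omitting ZT0 replicate 3 left 2 members and 213 genes. Atf4 kept its cosinor call in 5 of 18 single omissions and lost it with library totals (false discovery rate 0.0526). Without the whole replicate number 1 or 2, 0 members were called, beside 1 and 0 of all genes. With the oligodendrocyte score as a covariate the false discovery rates of the 4 members were at 0.0558 to 0.0604. Their amplitudes were then 0.30 (Hspa5), 0.44 (Calr) and 0.32 (Xbp1 and Atf4), and 4 genes were called in all. In a test for any difference among the 6 time points, Hspa5 (0.0278), Calr (0.0264) and Atf4 (0.0349) passed, beside 6.74% of all genes (edgeR), and omitting a single library left 0 members in 6 of 18 cases (replicate 1 of ZT0 and ZT16, replicate 2 of ZT4 and ZT8, and replicate 3 of ZT0 and ZT8), in which 5 to 167 genes were called in all.

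Members also varied together between libraries. The permutations below exchanged libraries across time points, so their p-values also reflect differences that members share between time points. The r values after time point means were subtracted were not tested. Over the 18 IPs, log2 CPM of Calr followed that of Hspa5 most closely among the 9 other members, with r = 0.935 and rho = 0.938 (permutation test, two-sided, p = 1e-05 for both, the smallest that 100000 resamples can give, 9e-05 after Benjamini-Hochberg adjustment over 9 relations). Without the 2 libraries farthest from the median of Hspa5 (ZT0 replicate 1 and ZT8 replicate 3) r was 0.915, and after time point means were subtracted it was 0.854. Xbp1 (r = 0.735, rho = 0.686), Atf6 (0.698, 0.622), Ddit3 (0.677, 0.589) and Eif2ak3 (0.589, 0.604) also followed Hspa5. Among 15571 other genes they ranked 960, 1307, 1486 and 2291 by r with Hspa5. Their permutation p-values after adjustment were 0.00243, 0.00297, 0.00297 and 0.0160 for r and 0.00651, 0.0159, 0.0171 and 0.0171 for rho. Without the same 2 libraries r was 0.773, 0.745, 0.562 and 0.575, and after time point means were subtracted it was 0.520, 0.593, 0.476 and 0.524.

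Atf4 went against Hspa5, with r = -0.728 and rho = -0.707 (permutation p after adjustment 0.00243 and 0.00651), -0.653 without the 2 libraries and -0.526 after time point means were subtracted. Counted from the lowest r, Atf4 ranked 1066 among the 15571 other genes. For Ern1, r was -0.483 and rho -0.511 (0.0545 and 0.0401 after adjustment, permutation test), and r was 0.0034 after time point means were subtracted. Hsp90b1 (r = -0.233, rho = -0.255) and Herpud1 (r = 0.0951, rho = 0.0691) showed no relation that passed (permutation p after adjustment of at least 0.345). As a description, Hsp90b1 lay closer to Atf4, with r = 0.742 between them and 0.626 after time point means were subtracted. Such correlations were common in these libraries, since the median size of r with Hspa5 over all 15571 other genes was 0.388 and 400 genes (2.57%) had r over 0.8.

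**Figure D3:**
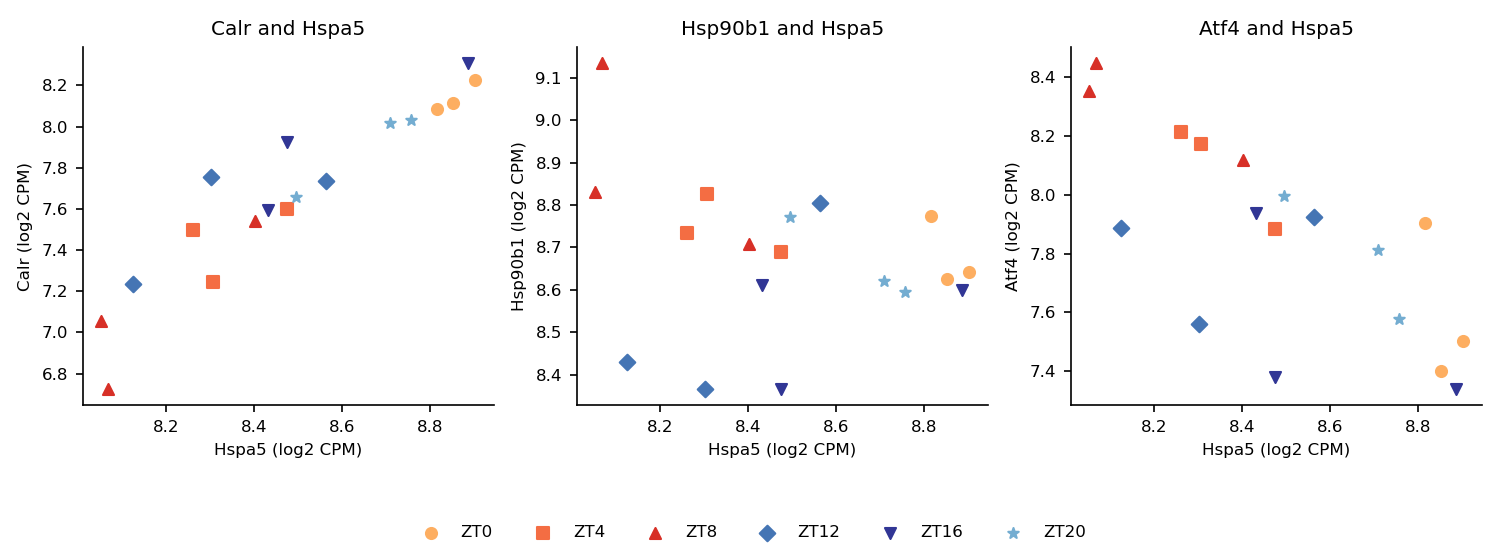
Log2 CPM of Calr (left), Hsp90b1 (middle) and Atf4 (right) on the y axes against log2 CPM of Hspa5 on the x axes; each point is 1 of the 18 IP libraries and its symbol and colour give the time point. Calr rises with Hspa5 (r = 0.935), Atf4 goes down (r = -0.728) and Hsp90b1 has no clear slope (r = -0.233).

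Calr ranked second among all 15571 genes by r with Hspa5, and at 31 after time point means were subtracted. The 5 genes most like Hspa5 were Dclk1 (r = 0.956), Calr, Pdia3 (0.934), Kcnk1 (0.924) and Siae (0.908), of which Pdia3 is the disulfide isomerase that works together with calreticulin. The 5 most opposite were Ehbp1l1 (-0.931), Khk (-0.930), Mapk11 (-0.923), Bcl7c (-0.918) and Mtarc2 (-0.917). The first principal component of the libraries ran with several members. Its r was -0.956 with Calr, -0.837 with Hspa5, 0.952 with Atf4 and 0.700 with Hsp90b1, beside a median size of 0.444 over all genes tested. This component was used as a covariate in the cosinor, the test among time points, ZT8 against ZT0, ZT16 against ZT8 and ZT20 against ZT8. There 0 members were called by edgeR, and of all 15572 genes 2 to 18 were called. The other pairs were not refitted. The component is computed from the same libraries and also differs between ZT0 and ZT8, and what it stands for was not tested.

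The rest of the pathway was followed in 102 further genes of 6 lists, with 22 cytosolic chaperone genes as a comparison outside the ER. The lists were chosen with earlier results of these data known. From ZT0 to ZT8, 14 of the 102 genes rose and 21 fell, beside 8.95% and 9.02% of all genes tested. From ZT8 to ZT16, 20 rose and 13 fell, beside 9.11% and 7.80%. The counts from ZT0 to ZT8 went down to 4 without ZT8 replicate 2, 6 without ZT0 replicate 1, 12 without ZT8 replicate 3 and 15 without ZT0 replicate 3. Calls over all genes went down in these cases too, from 2798 to 274, 639, 1114 and 1128. Those of pathway genes from ZT8 to ZT16 went down to 1 when ZT8 replicate 2 was omitted, to 2 for ZT16 replicate 2 and to 10 for ZT16 replicate 1 or ZT8 replicate 3. Over all genes, 87, 72, 892 and 931 were then called, beside 2633 with every library. 

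Among 23 further genes of folding and disulfide formation in the ER, 8 fell and 2 rose from ZT0 to ZT8, with a list median of -0.21 beside -0.003 over all genes. Of all genes tested, 9.02% fell and 8.95% rose. Sdf2l1, a cochaperone in the BiP complex, went from 16.1 ± 0.619 to 5.43 ± 1.19 CPM, a log2 fold change of -1.57 (SE 0.27, false discovery rate 0.00519, edgeR). Txndc5 (-0.53), the cyclophilin gene Ppib (-0.53) and Erp44 (-0.68) fell as well. Erp29 (0.71, 159 ± 24.6 to 260 ± 39.9 CPM) and the prolyl isomerase gene Fkbp2 (0.50) rose. At ZT16 6 of the 23 were above and 1 (Erp29) below ZT8, beside 9.11% and 7.80% of all genes tested. A search of all promoter windows for the ERSE found it in 37 genes, of which 20 were tested. Apart from Hspa5, Calr and Hsp90b1, 1 of the other 17 (Alg12) fell and 0 rose from ZT0 to ZT8, beside 9.02% and 8.95% of all genes tested.

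Translocation into the ER held genes of both directions. Of 16 genes of the translocon and signal peptidase, 7 rose and 3 fell from ZT0 to ZT8, with a list median of 0.40. Of all genes tested, 8.95% rose and 9.02% fell. The translocon subunit gene Sec61b went from 15.3 ± 1.05 to 34.8 ± 6.22 CPM, a log2 fold change of 1.18 (SE 0.26, false discovery rate 0.00732, edgeR). The signal peptidase genes Spcs1 (0.72) and Sec11a (0.56) and the translocon-associated Ssr3 (0.56) rose too. Ssr4 went from 32.6 ± 1.87 to 17.5 ± 3.74 CPM, a log2 fold change of -0.90, and Srprb (-0.41) and the channel gene Sec61a1 (-0.59) also fell, so that Sec61a1 and Sec61b, which encode subunits of one channel, moved in opposite directions. From ZT8 to ZT16, 9 genes of this list fell and 2 rose, beside 7.80% and 9.11% of all genes tested.

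ER-associated degradation, in which misfolded proteins are ubiquitinated and moved to the proteasome, was divided, with 3 genes higher (Ube2g2 by 0.59, Selenos by 0.73 and Derl1 by 0.30) and 3 lower (among them Ube2j1 by -0.61 and Edem2 by -0.43) among 19 at ZT8 against ZT0. Among 10 genes that process or regulate the sensors, Rtcb, the ligase that joins the spliced Xbp1 mRNA, was higher by 0.39 (SE 0.11, false discovery rate 0.0197, edgeR), and no other passed. The cytosolic comparison list had 3 of 22 genes lower and 0 higher, and these were Hspa8 (-0.52), Dnaja2 (-0.55) and Dnajb1 (-0.60). The counts of these lists stand beside 8.95% of all genes higher and 9.02% lower at ZT8 than at ZT0.

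Of 22 genes known as ATF4 targets, 0 rose and 4 fell from ZT0 to ZT8, beside 8.95% and 9.02% of all genes tested. From ZT8 to ZT16, 7 rose and 0 fell, beside 9.11% and 7.80%. Atf4 itself rose in the first interval and fell in the second, and a relation to its targets was not tested. Between ZT0 and ZT8 Chac1, which degrades glutathione, went from 31.3 ± 3.48 to 13.7 ± 5.25 CPM, a log2 fold change of -1.20 (SE 0.22, false discovery rate 0.00519, edgeR). The tRNA synthetase gene Aars (-0.55), the serine synthesis gene Psat1 (-0.45) and Sesn2 (-3.04) fell with it, of which Sesn2 was low throughout, at 4.66 ± 2.29 CPM at ZT0 and 0.584 ± 0.750 CPM at ZT8. The list median was -0.13 from ZT0 to ZT8 and 0.25 from ZT8 to ZT16. Of 12 genes of the integrated stress response, Eif2s1 (-1.37), which encodes eIF2 alpha, and the eIF2B subunit genes Eif2b2 (-1.21) and Eif2b1 (-0.60) fell, and Ppp1r15b (0.48), a subunit of the phosphatase that acts on eIF2 alpha, rose.

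**Figure D4:**
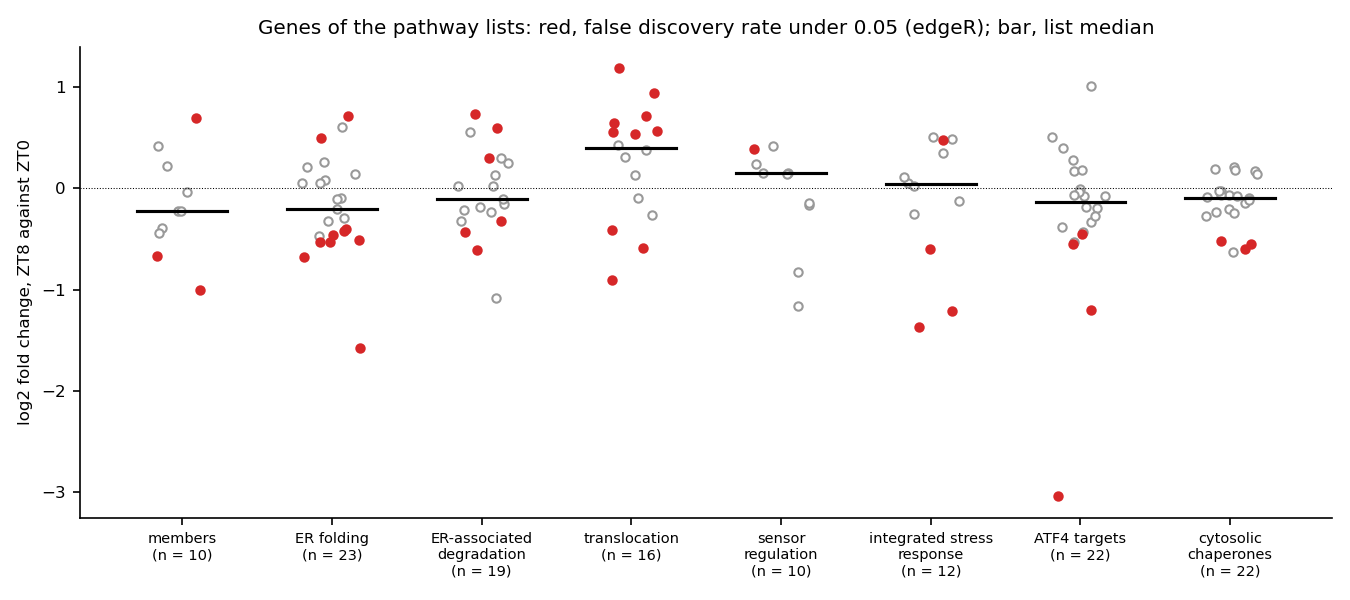
Log2 fold change from ZT0 to ZT8 (y axis) of every tested gene of the members and the 7 further lists (x axis, with the number of genes); red points passed a false discovery rate of 0.05 (edgeR) and black bars give the list medians. The translocation list has its median at 0.40, whereas those of ER folding (-0.21) and ATF4 targets (-0.13) lie below 0.

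Finally, members were set against the pooled input, which has 1 library and so allows no test. Of the members 1, Atf4, was enriched in the IPs (at least 2-fold with all 18 IPs above the input), beside 15.2% of 16723 genes, and 0 were depleted in the same sense, beside 24.5%. Atf4 was at 104 CPM in the input (95% Poisson interval 99.4 to 109, counting error only) and at 240 ± 55.4 CPM in the IPs (SD, n = 18), a log2 ratio of 1.21. It stood above the input at every time point, with log2 ratios from 0.90 at ZT16 to 1.62 at ZT8. Hspa5 (0.79), Hsp90b1 (0.71) and Herpud1 (0.36) were above the input in 18 of 18 IPs as well, without reaching 2-fold.

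Calr at 217 ± 60.2 CPM was level with the input (220 CPM, 213 to 227), but by time point its log2 ratio went from 0.38 at ZT0, with 3 of 3 IPs above, to -0.62 at ZT8, with 0 of 3 above. Xbp1 was below the input in 18 of 18 IPs (36.3 ± 7.63 against 49.0 CPM, 45.9 to 52.2, a log2 ratio of -0.43). Ern1, Eif2ak3, Atf6 and Ddit3 lay between -0.11 and 0.08. The members' median was 0.05 beside -0.09 for all genes compared. It was below 0 with the 3 other scalings (-0.03 with DESeq2 size factors, -0.09 with upper-quartile scaling and -0.30 with library totals). With library totals Atf4 was at 0.86 and thus no longer 2-fold above the input, and Herpud1 was at 0.01. Since the input pools all cell types of the homogenate, its level is not that of the same neurons before precipitation.

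**Figure D5:**
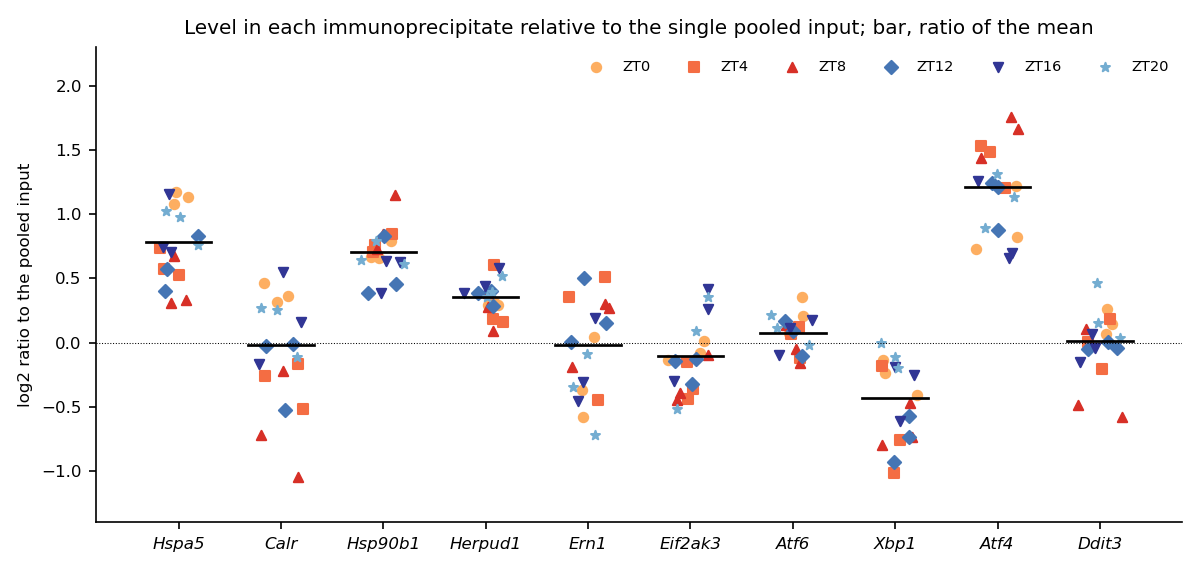
Log2 ratio (y axis) of each of the 18 IP libraries to the pooled input for each member (x axis); symbols and colours give the time point and black bars the ratio of the mean. Atf4 lies highest (1.21) and all 18 points of Xbp1 lie below 0.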

How the data were processed

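The authors aligned paired-end reads with STAR (2.7.5 per the labels) to mm10 and quantified genes with RSEM. The table deposited by the authors holds expected counts of genes, without normalization. All columns were mapped to samples by name. Expected counts were rounded, and genes were kept by filterByExpr over the 6 time points. After TMM scaling, edgeR 4.0.16 (R 4.3.3) gave quasi-likelihood F-tests fitted to the 18 immunoprecipitates together, and false discovery rates (Benjamini-Hochberg, all genes tested) under 0.05 counted as calls. Each SE is the log2 fold change divided by the root of its F statistic. Log2 CPM used a prior count of 2. JTK_Cycle used periods of 20, 24 and 28 h (18 templates), Bonferroni adjustment within a gene and then adjustment across genes, and time points of equal cosine were merged. The scripts were tested on simulated data. Alternatives included DESeq2 1.42.0, other scalings and filters, libraries left out and covariates.

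The members and gene lists were chosen with earlier results of these data known. Named genes were all members, up to 4 higher and 4 lower called genes of each list with the lowest p in ZT8 against ZT0, and the 5 genes with the highest and 5 with the lowest r with Hspa5. Alg12, and Mbtps2, Eif2b4, Atf3 and Pdia6 for the cosinor, were named after their values were seen. A gene of the degradation list that this rule would name is not reported here.

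The replicate numbers come from the labels. Correlations of deviations from the time point means ranged from -0.519 to 0.585 (median 0.0748) between libraries of the same number and from -0.551 to 0.525 between others, so the numbers were not treated as pairs. Per the labels replicates are biological, one spinal cord each per the methods, and the study states that samples of an experiment were processed on 1 day.

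Promoter sequences and gene coordinates are from RefSeq (GRCm38.p6) and exon lengths from GENCODE M21, both of which may differ from the annotation the authors used. The lowest total was 6302150 counts.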

Additional observations from a re-analysis of the deposited data

How the results depend on the processing

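Among the members, the calls of Hspa5, Calr and Atf4 in ZT8 against ZT0 and Hspa5, Calr, Atf4 and Hsp90b1 in ZT16 against ZT8 held in the same direction with DESeq2, DESeq2 size factors, library totals, upper-quartile scaling, both count filters and the oligodendrocyte score, which added Eif2ak3 (0.64) in ZT16 against ZT8. The replicate block gave the same counts of members for the cosinor (4), the time points (3), ZT8 against ZT0 (3), ZT16 against ZT8 (4) and ZT20 against ZT8 (0), and gave 2 rhythmic members instead of 0 by JTK_Cycle. Adjustment within the gene gave 4 by JTK_Cycle. For ZT20 against ZT8, 1 member passed with a filter of at least 10 counts (154 of 20704 genes), 4 with at least 1 count (1641 of 25601), 4 with DESeq2 (1114 of 15572) and 2 with a correction for GC content and length (546 of 14729), an alternative chosen after seeing the data that used genes with an annotation only. That correction also put Ddit3 past the threshold in ZT8 against ZT0 (-0.70). For the 24-h cosinor of pathway genes (8), the counts were 31 with at least 1 count, 32 with DESeq2, 18 with the GC content and length correction and 0 with the oligodendrocyte score, which also gave 0 members. With the first principal component as a covariate 0 members passed in the cosinor, the time points or these 3 pairs. In the cosinor, ZT8 against ZT0 and ZT16 against ZT8, 0 pathway genes passed. The log2 fold change turned sign for Hsp90b1 (-0.10), Eif2ak3 (0.22), Atf6 (0.0431) and Xbp1 (0.0468) in ZT8 against ZT0. It also did so for Calr (-0.0024), Atf6 (-0.18), Xbp1 (-0.12) and Ddit3 (-0.0855) in ZT16 against ZT8, and for Eif2ak3 (-0.0234) and Atf6 (-0.0734) in ZT20 against ZT8. None of these values was called, and the cause was not tested. The members' median against the input was -0.30 with library totals.

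When a library or a replicate number was left out, members called ranged from 0 to 5 in ZT8 against ZT0, ZT16 against ZT8, ZT20 against ZT8, the cosinor and the time points, and from 0 to 2 by JTK_Cycle. Pathway genes ranged from 0 to 47 in ZT8 against ZT0, 0 to 48 in ZT16 against ZT8 and 0 to 37 for the cosinor. The calls over all genes moved as well. Without replicate number 2, 0 of 15650 genes were called in each of these edgeR tests. Without ZT8 replicate 1, 4010 of 16109 genes were called in ZT8 against ZT0 and 3885 in ZT16 against ZT8. The cosinor called 2668 of 16089 genes without ZT20 replicate 3. For the relations with Hspa5 only whole replicate numbers were left out, and 4 to 6 passed. The median against the input ranged from 0.027 to 0.075. The change of Atf6 in ZT16 against ZT8 ranged from -0.0353 (without replicate 2) to 0.177 (without ZT8 replicate 1), that in ZT20 against ZT8 was -0.0021 without replicate 2, and that of Herpud1 in ZT8 against ZT0 was 0.026 without replicate 3 and 0.029 without ZT8 replicate 3. With 3 animals per time point and few counts for Ern1 (at least 31 per library), small changes could not be resolved.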

Other observations

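Of the 7 lists, cytosolic chaperones stood highest against the pooled input, with 14 of 22 genes enriched, 0 depleted and a median log2 ratio of 1.18. ATF4 targets held 7 enriched and 5 depleted genes of 22 (median 0.13), ER folding 3 and 1 of 23 (0.24), ER-associated degradation 3 and 2 of 19 (0.19), translocation 4 and 1 of 16 (0.50), the integrated stress response 3 and 1 of 12 (0.60) and sensor regulation 3 and 2 of 10 (0.33). Over all 16723 genes compared, 15.2% were enriched and 24.5% depleted, with a median of -0.09. The other scalings were not applied to these lists. With 1 input library these are values without a test. A 24-h cosinor was called for 8 of the 102 pathway genes (edgeR, false discovery rate under 0.05), beside 6.24% of all genes, and the count ranged from 0 to 37 when a library or a replicate number was left out. Of the 8, Sdf2l1 (peak at ZT20.2, amplitude 0.63 on the log2 scale) and Erp44 (ZT20.0, 0.36) peaked in the dark phase. All the others peaked in the light phase. They were Rtcb (ZT8.4, 0.20), Ube2g2 (ZT7.5, 0.24), Mbtps2 (ZT4.5, 0.30), Eif2b4 (ZT7.4, 0.22), Atf3 (ZT11.4, 0.96) and Pdia6 (ZT0.2, 0.17). Among them Atf3 was low, at 0.931 ± 0.536 CPM at ZT20 and 5.265 ± 1.458 CPM at ZT12.

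The 4 erythrocyte markers summed to 597 to 750 CPM in the 3 libraries of ZT12 and to 208 to 431 CPM in the other 15.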
